A study of Mus musculus with 6 samples.

Results

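The genes described here encode the proteins of the cytosolic ribosome, and they were measured in naive CD4 T (CD4N) cells that lack the transcription factor Foxo1 or carry it, after 4 days of activation in culture. Members were taken by gene symbol from the deposited normalized table, as symbols that begin with Rps, Rpl or Rplp, go on with a number and end there or in a, x, l or al, which leaves out pseudogenes named -ps and the S6 kinases. This rule gave 81 of the 13564 genes of that table, with 31 genes of the small (40S) subunit, 47 of the large (60S) subunit and 3 of the stalk of the large subunit. The rule itself used symbols only, while the table it was applied to had been limited by the authors to genes with enough reads. The 3 Foxo1TKO libraries came from C57BL/6 mice with CD4cre and Foxo1 fl/fl, in which Cre is driven by the Cd4 promoter and removes Foxo1 in T cells, and the 3 Foxo1Ctrl libraries came from Foxo1 fl/fl mice without Cre. The study's methods call the mice young adult and give both lines a Foxp3-GFP reporter. By the labels, all 6 cultures held 50000 CD4N cells from lymph nodes, a soluble anti-CD3 antibody at 0.1 μg/ml and 250000 splenocytes of CD3eKO mice, which lack T cells, as antigen-presenting cells. The study's methods give more CD4N cells for cultures of this kind. No source says that the splenocytes were removed before RNA was taken, and the labels do not say whether the 3 libraries of a genotype came from separate mice or cultures, so p-values here measure only the spread between these libraries.

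A ribosome is built from ribosomal RNA and about equal parts of each ribosomal protein, and cells make these proteins in a coordinated way. Most of their mRNAs begin with a C followed by a run of pyrimidines, the 5′ terminal oligopyrimidine (TOP) tract, through which the mTORC1 kinase and the RNA-binding protein Larp1 set their translation. Naive T cells hold few ribosomes, and after antigen receptor signaling they enlarge and make many before they divide. Foxo1 is active in quiescent T cells and is moved out of the nucleus by Akt once the receptor is engaged.

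Expected counts per library summed to 16502065 to 19675447 in Foxo1TKO and 14783890 to 18265937 in Foxo1Ctrl. Foxo1 itself (ENSMUSG00000044167) had 85.4, 46.5 and 115 normalized counts in Foxo1TKO libraries 1 to 3 and 1529, 2285 and 1598 in Foxo1Ctrl libraries 1 to 3, in the direction its labels give. The T cell markers were present, with a sum over 9 genes of 147671 to 151382 normalized counts in Foxo1TKO and 156730 to 175946 in Foxo1Ctrl. Of the 9 genes, 5 had a log2 fold change above 0 and 4 below. Of them 0 were called higher and 1 lower, which was Cd28 (log2 fold change -1.43), where 11.8% and 12.4% of all genes tested were. Markers of B cells, which the added splenocytes contain, were called lower in Foxo1TKO in 7 of 9 genes tested, where 12.4% of all genes tested were. The sum of the 10 genes of that list was 6671 to 8219 in Foxo1TKO and 19174 to 26628 in Foxo1Ctrl. Macrophage markers summed to 85.1 to 149 and 80.1 to 142 normalized counts, dendritic cell markers to 146 to 204 and 153 to 265, and C1qa and Cd209a were at 0 in all libraries. Of 12 proliferation genes 6 rose (50%, where 11.8% of all genes tested did), while Mki67, Ccnb1, Bub1, Aurkb, Mcm2 and Mcm3 were not called. The sum of the 12 was 21138 to 27883 in Foxo1TKO and 12916 to 15062 in Foxo1Ctrl. By dye dilution, the study reports that Foxo1-deficient cells proliferated markedly less in cultures of this kind. Dye dilution gives the mean number of divisions since the start of a culture, while the RNA was taken at its end. Whether these transcripts are a measure of division was not tested. The part of these shifts in the results below was not tested. In such bulk libraries, fewer cells of a type and less RNA per cell cannot be told apart.

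Sequences around the start sites are shown first, because a TOP tract, where present, lies at the start of the transcript. RefSeq promoter entries on GRCm38.p6 matched 59 of the 81 genes by symbol, and each printed window runs from 15 bases before the annotated start to the 15th base of the transcript, on the strand of the gene. Capitals mark the longest run of C and T that starts with C, where it is 5 or more bases long. The first 4 windows belong to the called genes with the largest log2 fold changes that have an entry, and the last 4 to genes with an entry among the lowest log2 fold changes.
Rps2 (chr17:24720048-24720077, plus strand): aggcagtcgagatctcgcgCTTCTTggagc
Rps26 (chr10:128626492-128626521, minus strand): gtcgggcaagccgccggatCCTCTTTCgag
Rpl12 (chr2:32961697-32961726, plus strand): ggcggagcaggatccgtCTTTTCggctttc
Rpl28 (chr7:4792950-4792979, plus strand): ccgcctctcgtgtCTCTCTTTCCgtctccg
Rpl13a (chr7:45128731-45128760, minus strand): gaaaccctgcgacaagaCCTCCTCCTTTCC
Rpl18 (chr7:45718056-45718085, plus strand): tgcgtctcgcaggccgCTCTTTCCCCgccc
Rpl24 (chr16:55966260-55966289, plus strand): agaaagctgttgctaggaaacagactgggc
Rps27 (chr3:90213634-90213663, minus strand): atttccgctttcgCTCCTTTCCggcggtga
Both sets hold pyrimidine runs, the longest of them of 13 bases in Rpl13a, and the window of Rpl24 holds no run of 5 bases. A run of 7 or more C or T that starts with C lay in the window of 29 of the 59 genes (49.2%), against 14.1% of all 27025 promoters and 14.5% of the 9511 promoters of genes tested. It was found in 7 of 14 genes called higher in Foxo1TKO and in 22 of 45 not called, which is 50.0% and 48.9%. In the whole 300 bases of each entry, from 250 before the start to 50 after it and on both strands, the motif CCGGAAG of Ets factors and Gabpa was in 39.0% of the ribosomal protein genes and 9.12% of all promoters (19.8% of promoters of genes tested). The Yy1 motif AAGATGG was in 13.6% and 6.48% (7.75%), the E-box CACGTG in 8.47% and 7.24% (10.4% of promoters of genes tested), and the forkhead motif GTAAACA, which Foxo1 can bind, in 1 of 59 genes (1.69%) and 3.55% of all promoters (2.63% of promoters of genes tested). A match or its absence describes these letters in these windows only, and the start of a RefSeq entry need not be the start used in these cells. Some printed windows lie inside the gene as the GENCODE annotation places it. Among these are Rps2 and Rpl18, whose genes start there at 24718116 and 45715457 on the plus strand.

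The summed share of the ribosomal protein genes was higher in every Foxo1TKO library than in every Foxo1Ctrl library. It was 6.29%, 5.75% and 5.99% of expected counts in Foxo1TKO libraries 1 to 3 and 4.74%, 4.69% and 4.35% in Foxo1Ctrl libraries 1 to 3. The means were 6.01% ± 0.268 and 4.59% ± 0.211 (SD, n = 3 each), a difference of 1.42 percentage points and a ratio of 1.31. Per transcript length, as TPM, the transcript abundance that RSEM scales to length and to a fixed library total, the share was 13.8%, 12.2% and 12.4% in Foxo1TKO and 10.8%, 9.92% and 10.1% in Foxo1Ctrl, with means of 12.8% ± 0.880 and 10.3% ± 0.487. Libraries 2 and 3 of Foxo1Ctrl exchanged places between the count and the TPM scale, the order in Foxo1TKO was the same, and on both scales the lowest Foxo1TKO library lay above the highest Foxo1Ctrl library. Being a score over the genes, the share was given no test.

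**Figure D1:**
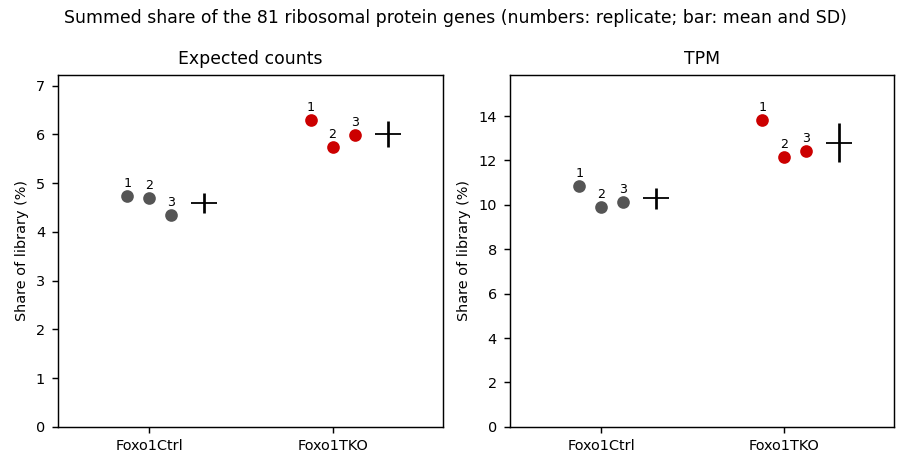
Summed share of the 81 ribosomal protein genes in each library, in percent of expected counts (left) and of TPM (right), with both axes from 0. Points are libraries with their replicate number, and the black marks are the mean and SD of each genotype. The Foxo1TKO libraries hold 5.75% to 6.29% of counts and the Foxo1Ctrl libraries 4.35% to 4.74%.

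Each of the 3 groups of genes took a larger share of all TPM in every Foxo1TKO library than in every Foxo1Ctrl library. Small subunit genes took 41.1% to 41.9% of the TPM of all ribosomal protein genes in Foxo1TKO and 42.0% to 42.5% in Foxo1Ctrl, and large subunit genes without the stalk 53.1% to 54.0% and 52.2% to 52.8%. The stalk genes took 4.87% to 5.05% in Foxo1TKO and 5.20% to 5.33% in Foxo1Ctrl, so that their part was lower in every Foxo1TKO library while their share of all TPM was higher. The ratio of the summed TPM share between genotypes was 1.24.

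Gene by gene, 20 of the 81 genes (24.7%) rose in Foxo1TKO at an edgeR adjusted p under 0.05, where 11.8% of the 13691 genes tested did. None fell, where 12.4% of all genes tested did, and none was below 0 with an unadjusted p under 0.05. DESeq2 gave 29 higher and 0 lower. With a fold over 1.5 asked as well, 11 of the 81 rose, a share close to the 11.1% of all genes tested. None of the 81 fell under that rule, where 11.8% of all genes tested did. All 81 genes passed the filter of 10 counts in 3 libraries, which the authors' similar limit on the deposited table made likely in advance. Of the 81, 77 had a log2 fold change above 0, which 50.6% of all genes tested had. The median of the 81 was 0.33 (interquartile range 0.19 to 0.51), a fold of 1.26, beside 0.011 over all genes (-0.46 to 0.45). In 51 genes (63.0%) every Foxo1TKO library lay above every Foxo1Ctrl library, where 21.5% of all genes did so. The opposite order was found in 0 of the 81 genes and in 21.2% of all genes, and the genotypes overlapped in the other 30 genes. Small subunit genes rose in 8 of 31 cases with a median log2 fold change of 0.31, large subunit genes in 12 of 47 with a median of 0.35, and the 3 stalk genes in 0 with a median of 0.28. The cumulative plot shows that the distribution of both subunits was shifted to higher values and was narrower than that of all genes. The count of calls, and its place against the background, depended on the libraries used. Without Foxo1Ctrl 1 it was 4 of 81 (4.94%, where 6.61% of all genes tested were called higher) and without Foxo1Ctrl 3 it was 5 of 81 (6.17% against 8.46%), so that the share of called genes was below that of all genes. Without Foxo1TKO 1, 2 or 3 it was 9, 6 and 8, or 11.3%, 7.50% and 9.88%, against 8.18%, 4.96% and 6.96% of all genes. Without Foxo1Ctrl 2 it was 36 of 80 (45.0% against 13.7%), which kept 19 of the 20 calls and added, among the genes described below, Rps6, Rps27a, Rps27l, Rpl3, Rpl5, Rpl22, Rpl23, Rpl36al and Rplp1 with log2 fold changes of 0.41 to 0.89. Their median log2 fold change stayed between 0.25 and 0.42 when single libraries were left out.

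**Figure D2:**
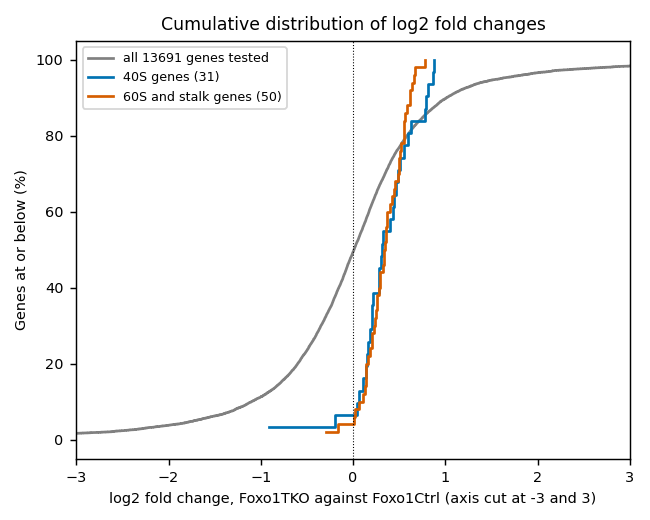
Cumulative share of genes (vertical axis, percent) at or below each edgeR log2 fold change of Foxo1TKO against Foxo1Ctrl (horizontal axis) for the 40S genes, the 60S and stalk genes together, and all 13691 genes tested. The lines of the ribosomal protein genes are steep and lie to the right of 0 over most of their range, with a median of 0.33 over the 81 genes beside 0.011 over all genes.

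Among the largest log2 fold changes were those of Rps2, Rps29, Rps26 and Rpl12, of which 3 belong to the small subunit. Rps2 (ENSMUSG00000044533, chr17:24718116-24721929 on GRCm38, plus strand), which sits near the mRNA entry channel, had 15441, 15665 and 15419.5 normalized counts in Foxo1TKO libraries 1 to 3 and 6996, 8464 and 10006 in Foxo1Ctrl libraries 1 to 3. The Foxo1TKO libraries were nearly equal and the Foxo1Ctrl libraries were spread, with library 3 the highest of them (log2 fold change 0.87, SE 0.17, adjusted p = 0.00792, a fold of 1.83). The exons of Rps2 overlap those of the antisense Snhg9 and hold Snora64, and no source used here says whether counting used strand.

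Rps29, a small zinc-binding protein of the 40S head, had 2148, 2210.2 and 2731 normalized counts in Foxo1TKO libraries 1 to 3 and 1219.7, 1375 and 1503 in Foxo1Ctrl libraries 1 to 3. Library 3 was the highest of both genotypes, and the groups did not overlap (log2 fold change 0.79, SE 0.16, adjusted p = 0.0104). Rps26, which lies at the mRNA exit channel, had 14522, 15149.9 and 16864 normalized counts in Foxo1TKO libraries 1 to 3 and 8099, 10771 and 8205 in Foxo1Ctrl libraries 1 to 3. Foxo1Ctrl 2 was the highest Foxo1Ctrl library and stayed below all Foxo1TKO libraries (log2 fold change 0.78, SE 0.17, adjusted p = 0.0126). Rpl12, a protein at the base of the stalk, had 4359, 4431 and 4759 normalized counts in Foxo1TKO libraries 1 to 3 and 2462, 2904 and 2533 in Foxo1Ctrl libraries 1 to 3. Again Foxo1Ctrl 2 was the highest of its genotype, with no overlap (log2 fold change 0.78, SE 0.14, adjusted p = 0.00572). The calls of Rps2 and Rpl12 held in all 17 other fits, those without single libraries included. Rps29 lost its call without Foxo1Ctrl 1 (log2 fold change 0.69), and Rps26 without Foxo1TKO 2, Foxo1TKO 3, Foxo1Ctrl 1 or Foxo1Ctrl 3, with log2 fold changes of 0.68 to 0.81. Besides these, Rps12 and Rps25 of the small subunit and Rpl10, Rpl15, Rpl21, Rpl27, Rpl28, Rpl30, Rpl34, Rpl35a, Rpl36a, Rpl38 and Rpl39 of the large subunit rose, with log2 fold changes from 0.44 for Rpl27 to 0.66 for Rpl30, and are named because they were called. Their log2 fold changes were above 0 in all 17 other fits, while their calls held to different extents. Rpl28, Rpl30, Rpl10 and Rpl15 were called in 15, 14, 13 and 13 of the 17, Rps25 and Rpl35a in 12, Rps12 and Rpl21 in 11, Rpl36a and Rpl39 in 10, Rpl34 in 8, Rpl27 in 5 and Rpl38 in 4. With each library omitted in turn, Rpl28 was called in 4, Rpl30 in 3, Rpl10 and Rpl15 in 2 and Rpl39 in 0 of 6 fits. Each of the others was called in 1.

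**Figure D3:**
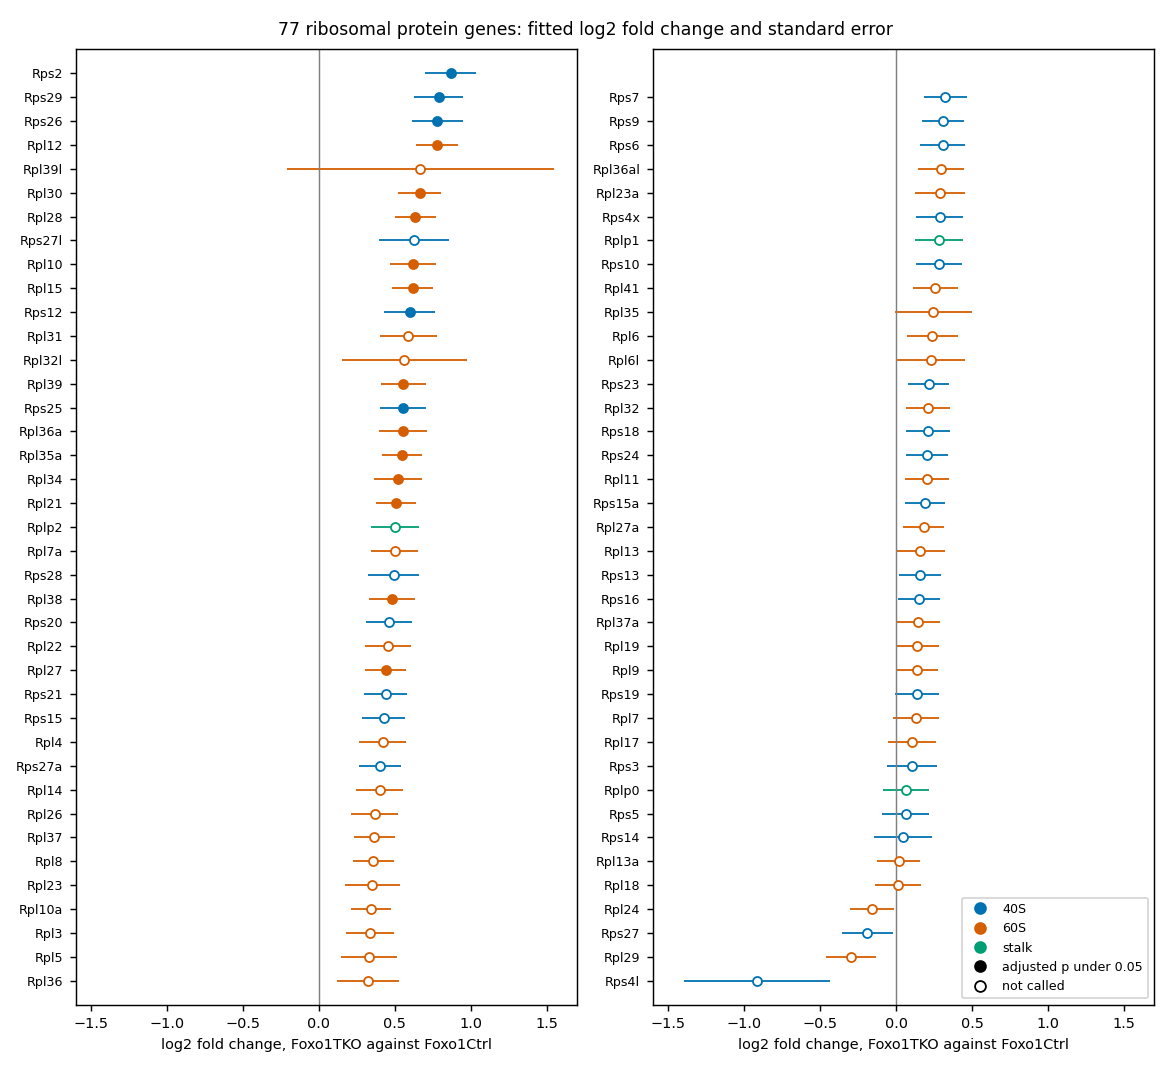
Fitted edgeR log2 fold change of Foxo1TKO against Foxo1Ctrl (horizontal axis) with its standard error (bars) for 77 of the 81 ribosomal protein genes, in order, coloured by subunit. Filled points, 17 in number, have an adjusted p under 0.05 and all lie above 0, while 4 genes lie below 0 with open points.

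The lowest log2 fold changes belonged to Rps4l, Rpl29, Rps27, Rpl24, Rpl18 and Rpl13a, and none of these passed the test. Rps4l, which the annotation lists as a transcribed processed pseudogene, was counted at 8.45, 25.4 and 10.7 against 21.5, 35.5 and 30 normalized counts for Foxo1TKO and Foxo1Ctrl libraries 1 to 3, too few for a firm value (log2 fold change -0.91, SE 0.48, adjusted p = 0.213). Rpl29, a large subunit protein, had 5216, 4043 and 4154 normalized counts in Foxo1TKO libraries 1 to 3 and 5926, 5756 and 4767 in Foxo1Ctrl libraries 1 to 3. Foxo1TKO 1 lay among the Foxo1Ctrl libraries (log2 fold change -0.29, SE 0.16, adjusted p = 0.241). Rps27, a zinc-binding small subunit protein, had 13695, 16168 and 19163 normalized counts in Foxo1TKO libraries 1 to 3 and 17634, 20072 and 18249 in Foxo1Ctrl libraries 1 to 3. The groups overlapped, as Foxo1TKO 3 exceeded Foxo1Ctrl 1 and 3 (log2 fold change -0.19, SE 0.17, adjusted p = 0.457). Rpl24 had 6229.7, 5336 and 5502 normalized counts in Foxo1TKO libraries 1 to 3 and 6843, 6569.8 and 5627 in Foxo1Ctrl libraries 1 to 3. Foxo1Ctrl 1 and 2 were above all Foxo1TKO libraries and Foxo1Ctrl 3 was not (log2 fold change -0.16, SE 0.15, adjusted p = 0.484). Rpl18 and Rpl13a had values of 0.012 and 0.016, and their genotypes overlapped. For these genes the sign of a value so close to 0 changed when some libraries were left out.

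Members of the small subunit with further roles spread over the same range. Rps6, the S6 kinase substrate, had 30560.2, 30338 and 31865 normalized counts in Foxo1TKO libraries 1 to 3 and 24346, 28273 and 22444 in Foxo1Ctrl libraries 1 to 3. The groups did not overlap, by a small margin (log2 fold change 0.31, SE 0.15, adjusted p = 0.182). Rps19, which is needed for 40S maturation and is mutated in Diamond-Blackfan anemia, had 24256, 21067 and 21498 normalized counts in Foxo1TKO libraries 1 to 3 and 21999, 19310.4 and 19459 in Foxo1Ctrl libraries 1 to 3. Its Foxo1TKO 2 and 3 lay below Foxo1Ctrl 1 (log2 fold change 0.14, SE 0.14, adjusted p = 0.539). Rps3, at the mRNA entry, had a log2 fold change of 0.11, Rps14 one of 0.043, and Rps4x, encoded on the X chromosome, one of 0.29, with adjusted p of 0.689, 0.897 and 0.221 in the edgeR test. Rps27a, whose product is made as a fusion with ubiquitin, had 10646, 9292 and 9724 against 7562, 7925 and 6901 normalized counts for Foxo1TKO and Foxo1Ctrl libraries 1 to 3. There was no overlap in Rps27a, and the test was not passed (log2 fold change 0.41, SE 0.14, adjusted p = 0.0691).

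On the large subunit, Rpl5 and Rpl11 form with 5S RNA the particle that can bind Mdm2, and neither passed the test. Rpl5 had 14850.3, 16031 and 16823 normalized counts in Foxo1TKO libraries 1 to 3 and 11759, 15682 and 10492 in Foxo1Ctrl libraries 1 to 3, and Rpl11 had 8463, 7689 and 7487 normalized counts in Foxo1TKO libraries 1 to 3 and 6849.8, 7544 and 6162 in Foxo1Ctrl libraries 1 to 3. In both genes Foxo1Ctrl 2 was the highest Foxo1Ctrl library and reached into the range of Foxo1TKO, with log2 fold changes of 0.33 and 0.20 (adjusted p = 0.232 and 0.355 with edgeR). Rpl23, a further Mdm2-binding protein, showed the same order with a log2 fold change of 0.35 and an adjusted p of 0.201. Mdm2 and Mdm4, the p53 inhibitors, were measured beside them and fell, with log2 fold changes of -0.50 and -0.71 (adjusted p = 0.0311 and 0.0115). The call of Mdm4 was lost without Foxo1TKO 2 (log2 fold change -0.76), and that of Mdm2 without Foxo1TKO 2, Foxo1TKO 3, Foxo1Ctrl 1 or Foxo1Ctrl 3 (-0.52 to -0.44). Trp53, which encodes p53, and its target Cdkn1a had values of 0.73 and 0.62 that did not pass (adjusted p = 0.103 and 0.195).

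Rpl10, which joins the 60S subunit last and is needed for joining with 40S, had 12606, 10341 and 9728 normalized counts in Foxo1TKO libraries 1 to 3 and 7328, 7166 and 6773 in Foxo1Ctrl libraries 1 to 3. Its Foxo1TKO values were all above those of Foxo1Ctrl and spread more widely than them (log2 fold change 0.62, SE 0.15, adjusted p = 0.0216). The call was lost without Foxo1TKO 1 (log2 fold change 0.50), Foxo1TKO 2 (0.67), Foxo1Ctrl 1 (0.62) or Foxo1Ctrl 3 (0.58). Rpl3, a protein near the peptidyl transferase center, had 36918, 39836 and 41783 normalized counts in Foxo1TKO libraries 1 to 3 and 30956, 35602 and 27356 in Foxo1Ctrl libraries 1 to 3, without overlap and without passing the test (log2 fold change 0.34, SE 0.16, adjusted p = 0.168). Rpl22, a large subunit protein that developing T cells require, had 1672, 1673 and 1861 against 1328, 1371 and 1096 normalized counts for Foxo1TKO and Foxo1Ctrl libraries 1 to 3. Its groups did not overlap either, and it missed the threshold (log2 fold change 0.46, SE 0.15, adjusted p = 0.0625). Of the stalk, which recruits elongation factors, Rplp2 had 3248, 2446 and 2648 normalized counts in Foxo1TKO libraries 1 to 3 and 2101, 1826 and 1966 in Foxo1Ctrl libraries 1 to 3. All its Foxo1TKO libraries were above all Foxo1Ctrl libraries (log2 fold change 0.50, SE 0.16, adjusted p = 0.0531). Rplp1 and Rplp0 overlapped between genotypes, with log2 fold changes of 0.28 and 0.064.

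Several genes have a close copy that is also transcribed, and the part of the copy in the pair was computed from TPM, which is relative to length. Rps27l, a copy of Rps27, had 2522, 3148 and 3599 normalized counts in Foxo1TKO libraries 1 to 3 and 1582, 2644 and 1762 in Foxo1Ctrl libraries 1 to 3. Foxo1Ctrl 2 exceeded Foxo1TKO 1, so the groups overlapped, and the gene was not called (log2 fold change 0.63, SE 0.23, adjusted p = 0.0867). The part of Rps27l in the summed TPM of Rps27 and Rps27l was 9.19%, 9.67% and 9.28% in Foxo1TKO and 4.72%, 6.81% and 4.95% in Foxo1Ctrl, higher in every Foxo1TKO library. The part of Rpl36al in its pair with Rpl36a was 33.9%, 33.5% and 32.1% in Foxo1TKO and 36.9%, 37.1% and 37.3% in Foxo1Ctrl, lower in every Foxo1TKO library. Here Rpl36a rose (log2 fold change 0.55, SE 0.16, adjusted p = 0.0381, a call that held only without Foxo1Ctrl 2 among the fits that left out 1 library, with log2 fold changes of 0.48 to 0.61 in the others), and Rpl36al had a log2 fold change of 0.29 (adjusted p = 0.203). Rpl22l1 took 66.0%, 67.7% and 69.7% of its pair with Rpl22 in Foxo1TKO and 64.7%, 70.1% and 68.2% in Foxo1Ctrl, and these values overlapped. Rpl7l1, a paralog of Rpl7, took 8.79%, 8.71% and 9.19% of their pair in Foxo1TKO and 5.65%, 6.25% and 7.44% in Foxo1Ctrl, higher in every Foxo1TKO library. The differences between pairs were not tested. Rpl39l, Rpl32l, Rpl6l and Rps4l were the 4 genes with a mean TPM under 100, and Rpl39l had 10.1, 32.5 and 2.15 against 2.38, 18.3 and 6.78 normalized counts, without order between the genotypes. Since reads mapping to several loci were shared out among them by the counting, values of such near copies are uncertain.

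On the length-normalized scale, the lowest mean TPM among the 77 other genes was that of Rpl39 (186), and the 10 highest genes held 39.8% of the TPM of all 81. Among the highest mean TPM values were those of Rps27 (6183), Rpl32 (5143), Rps14 (4919.6), Rpl35 (4603) and Rps18 (4472). None of these 5 genes was called. Their log2 fold changes were -0.19, 0.21, 0.043, 0.25 and 0.21 in that order. Split by mean TPM into a top group of 20 and 3 groups of 19, the genes had a median log2 fold change of 0.25, 0.28, 0.35 and 0.50 from the highest to the lowest group, and 3 of 20, 4 of 19, 4 of 19 and 9 of 19 were called. Of all genes tested 11.8% were called higher, and the called share of the highest group lay near that value. Across the 77 genes the log2 fold change had a Spearman correlation of -0.47 with mean TPM and of -0.17 with transcript length. These are descriptions across genes that share the same 6 libraries, and no test was made. The median effective length of the genes, on which TPM depends, was 469 to 493 bases in Foxo1TKO and 483 to 489 in Foxo1Ctrl.

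Among the 3 libraries of a genotype the genes also differed from each other, and in a pattern that many of them shared. By normalized counts, Foxo1Ctrl 2 was the highest Foxo1Ctrl library for 56 of the 81 genes, and Foxo1Ctrl 3 the lowest for 59. This order depends on the scaling, whose TMM factor was lowest in Foxo1Ctrl 2 (0.889) and highest in Foxo1TKO 1 (1.10). As a summed share of unscaled counts, Foxo1Ctrl 1 (4.74%) lay above Foxo1Ctrl 2 (4.69%). By TPM, Foxo1Ctrl 2 was the lowest Foxo1Ctrl library (9.92%). Foxo1TKO 1 had the highest summed share on both scales (6.29% and 13.8%). In Foxo1TKO, by normalized counts, library 3 was the highest for 48 genes, library 1 for 30 and library 2 for 3. Over the 77 genes of at least 100 TPM, the coefficient of variation of the normalized counts had a median of 6.54% in Foxo1TKO (0.876% to 22.5%) and of 9.74% in Foxo1Ctrl (1.38% to 30.4%). Rpl35 was a gene of wide spread, with 29829, 37902 and 46593 normalized counts in Foxo1TKO libraries 1 to 3 and 27150.2, 43420.4 and 25882 in Foxo1Ctrl libraries 1 to 3. Foxo1Ctrl 2 and Foxo1TKO 3 stood high in that gene, and Foxo1TKO 1 stood near the other Foxo1Ctrl libraries (log2 fold change 0.25, SE 0.25, adjusted p = 0.534). For each gene, the log2 difference of Foxo1TKO 1 from the mean of the other Foxo1TKO libraries ran from -0.49 to 0.53, and that of Foxo1Ctrl 2 from the other Foxo1Ctrl libraries from -0.40 to 0.71. Across the 77 genes these 2 differences had a Pearson correlation of -0.79 and a Spearman correlation of -0.74. Of the 41 genes above the other Foxo1TKO libraries in Foxo1TKO 1, 29 were above and 12 below the other Foxo1Ctrl libraries in Foxo1Ctrl 2, and the 36 genes not above them in Foxo1TKO 1 were all above in Foxo1Ctrl 2. Over all genes tested, the deviations of these libraries from their genotype means had a correlation of -0.45. That was the lowest value of any pair of a Foxo1TKO with a Foxo1Ctrl library, and the highest was 0.43, for Foxo1TKO 1 with Foxo1Ctrl 1. Only the pair with the lowest value was examined across the ribosomal protein genes. The points share the 6 libraries and no test was made.

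**Figure D4:**
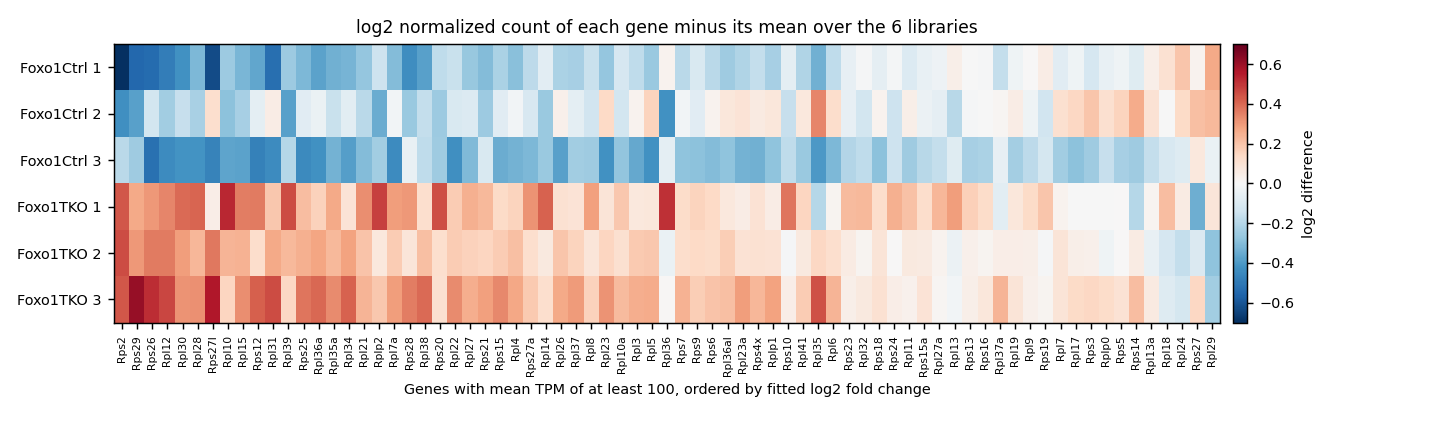
Colour gives, for 73 of the 77 genes with a mean TPM of at least 100 (columns, in order of log2 fold change) and each library (rows), the log2 normalized count minus the gene's mean over the 6 libraries. Most Foxo1TKO cells are red and most Foxo1Ctrl cells blue, Foxo1Ctrl 3 is the bluest row, and Foxo1Ctrl 2 is pale or red for genes on the right.

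Genes that belong to the ribosome or its regulation and lie outside the symbol rule were measured for comparison. Of all genes tested 11.8% rose and 12.4% fell. Of 8 ribosomal protein genes with other names, 2 (25%) rose and 0 fell (median log2 fold change 0.31). These were Rpl7l1, a paralog of Rpl7 (log2 fold change 0.64, SE 0.13, adjusted p = 0.00988), and Rack1, a scaffold on the 40S head (log2 fold change 0.54, SE 0.16, adjusted p = 0.0443). The call of Rpl7l1 was lost without Foxo1TKO 2 (log2 fold change 0.66) or Foxo1Ctrl 1 (0.59), and that of Rack1 without any single library other than Foxo1Ctrl 2 (0.45 to 0.58). Rpsa and Rps3a1 of the small subunit and Rpl22l1 had log2 fold changes of 0.39, 0.31 and 0.31 and did not pass the test. Fau, whose product is cut into a ubiquitin-like part and a small subunit protein, had 9658, 9394 and 9503 normalized counts in Foxo1TKO libraries 1 to 3 and 13425, 11723 and 11094 in Foxo1Ctrl libraries 1 to 3. Each Foxo1TKO library of Fau was below each Foxo1Ctrl library, and the test was not passed (log2 fold change -0.34, SE 0.14, adjusted p = 0.115). Rps27rt, a copy of Rps27, had a log2 fold change of -0.18. Among 72 pseudogenes named -ps, 4 (5.56%) rose, 0 fell and the median was 0.19, and their summed share of counts was 0.114% to 0.127% in Foxo1TKO and 0.0831% to 0.101% in Foxo1Ctrl.

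Of 18 other genes whose mRNAs carry a TOP tract, 6 rose (33.3%, where 11.8% of all genes tested did), 0 fell, and the median log2 fold change was 0.39. Hnrnpa1, an RNA-binding protein of splicing, had 5982, 7181 and 7326 against 2313, 3759 and 2498 normalized counts for Foxo1TKO and Foxo1Ctrl libraries 1 to 3, without overlap (log2 fold change 1.26, SE 0.21, adjusted p = 0.00489). The elongation factor subunits Eef1g and Eef1a1 rose by log2 values of 0.83 and 0.53, the nucleolar protein Npm1 by 0.75, the snoRNA host Gas5 by 0.74 and the initiation factor subunit Eif3f by 0.69. The calls of Hnrnpa1 and Eef1g held without any single library. Those of Npm1 and Eif3f held in 3 of 6 such fits, that of Gas5 in 2 and that of Eef1a1 in 1, each of them lost without Foxo1TKO 2 or without Foxo1Ctrl 1, where the log2 fold changes were 0.76 and 0.67 for Npm1, 0.66 and 0.52 for Eif3f, 0.74 and 0.67 for Gas5 and 0.57 and 0.49 for Eef1a1. Not past the threshold were Eef2, the translocase, at 0.19, the poly(A)-binding protein Pabpc1 at 0.36, and Tpt1, the translationally controlled tumor protein, at -0.42 (adjusted p = 0.156).

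Of 18 tested genes of mTORC1 and of the regulation of TOP mRNAs, 2 rose (11.1%) and 3 fell (median log2 fold change 0.15). Of all genes tested 11.8% rose and 12.4% fell, so both counts lay near the shares of all genes. The cap-binding protein Eif4e had 4213, 5469 and 5644 against 2393, 3613 and 2920.3 normalized counts for Foxo1TKO and Foxo1Ctrl libraries 1 to 3, and it rose, with Foxo1Ctrl 2 the highest of its genotype and below all Foxo1TKO libraries (log2 fold change 0.78, SE 0.20, adjusted p = 0.0249). Tbc1d7, a subunit of the Tsc complex that restrains mTORC1, rose as well (log2 fold change 0.55, SE 0.17, adjusted p = 0.0496). The genes that fell were Eif4ebp1, which encodes an inhibitor of Eif4e (log2 fold change -0.82, SE 0.15, adjusted p = 0.00741), and the Sestrins Sesn1 (log2 fold change -0.67, SE 0.16, adjusted p = 0.0175) and Sesn3 (log2 fold change -0.58, SE 0.14, adjusted p = 0.0189), which restrain mTORC1. Left out 1 at a time, the libraries kept the call of Eif4ebp1 in 5 of 6 fits (lost without Foxo1TKO 2, at -0.78), of Sesn3 in 3, of Eif4e and Sesn1 in 2 and of Tbc1d7 in 1, that without Foxo1Ctrl 2. Over all 17 other fits the log2 fold changes ran from 0.62 to 0.95 for Eif4e, from -0.76 to -0.60 for Sesn1 and from 0.46 to 0.64 for Tbc1d7. Sesn3 varied more, from -0.65 to -0.16, and was called in 11 of the 17. With an effective length offset, which takes changes of transcript length into account, the log2 fold change of Sesn3 was -0.17 (adjusted p = 0.688). Mtor, the kinase, had a log2 fold change of 0.49 (adjusted p = 0.136), and was called with the effective length offset (0.82, adjusted p = 0.0194) and in 4 of 17 other fits in all. Its partner Rptor and the TOP-binding Larp1 had 0.19 and 0.30. Of 7 tested promoter factors of ribosomal protein genes, 2 had a log2 fold change above 0 and 5 below, with a median of -0.10. Those below 0 were Gabpa (-0.20), Gabpb1 (-0.10), Yy1 (-0.084), Zbtb7a (-0.39) and Sp1 (-0.48), and none of them was called. Among the 7, 1 rose (14.3%, where 11.8% of all genes tested did) and 0 fell. This was Myc, a general activator of ribosome genes, with 6510.3, 5225 and 5121 normalized counts in Foxo1TKO libraries 1 to 3 and 1492, 1291 and 1973 in Foxo1Ctrl libraries 1 to 3. Every Foxo1TKO library held far more Myc than any Foxo1Ctrl library (log2 fold change 1.82, SE 0.20, adjusted p = 0.000762, a fold of 3.54), and the call held without any single library. The differences of these genes and of the ribosomal protein genes come from the same 6 libraries, and no relation between them was tested.

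**Figure D5:**
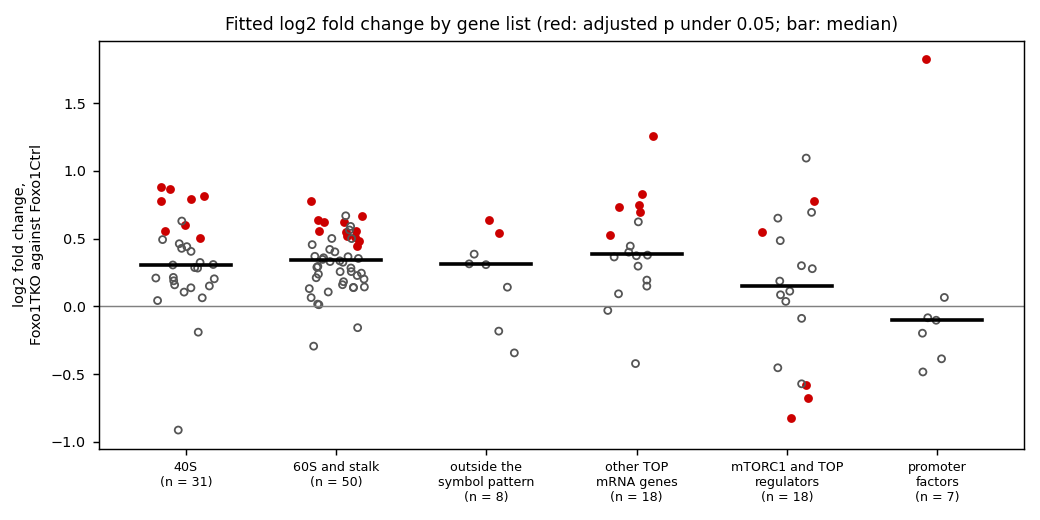
EdgeR log2 fold changes (vertical axis) for the 40S genes, the 60S and stalk genes, and 4 lists of related genes (horizontal axis, with the number tested). Each point is a gene, red where the adjusted p is under 0.05, and bars are medians. All called ribosomal protein and TOP genes lie above 0, and genes called in both directions appear among the mTORC1 and TOP regulators.

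By GENCODE M21 on GRCm38, the 81 genes lie on 19 chromosomes, with 14 on chromosome 7, and Rpl10, Rpl36a, Rpl39 and Rps4x on the X chromosome. Of the 81 genes 78 are annotated as protein coding, and Rpl32l, Rpl6l and Rps4l as processed pseudogenes. Exons of 27 genes overlap those of another gene on the same strand, among them small nucleolar RNAs, and those of 18 genes an antisense gene. Rps29 and Rps26 have no such overlap, while exons of Rpl12 overlap Snora65 and the antisense Lrsam1.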

How the data were processed

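Naive CD4 T cells of 3 Foxo1TKO and 3 Foxo1Ctrl libraries, assigned by their titles, were measured by RNA-seq after 4 days of activation. Per the study's methods and the labels, the authors aligned reads with STAR 2.7.6a to GRCm38, allowed reads that map to several loci, and counted with RSEM 1.3.1. Strandedness and trimming are not given in the sources used here. The authors deposited, per gene and library, RSEM expected counts, which are not normalized, and TPM, which is relative to effective length and library total. They also deposited a table of normalized signal, made with DESeq2 size factors and limited to genes with enough reads, which was used to choose the members and in an alternative fit.

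Here, expected counts were rounded, genes below 10 counts in more than 3 libraries were dropped (leaving 13691 of 55487), and edgeR 4.0.16 (R 4.3.3) fitted genotype by its quasi-likelihood test with TMM factors and a prior count of 1, with Benjamini-Hochberg adjustment over all genes tested. Normalized counts are counts scaled by TMM library size. Calls had an adjusted p under 0.05, alone or with a fold over 1.5. Alternatives used DESeq2 1.42.0, limma 3.58.1, other scalings and filters, a replicate block, and each library left out. Fits were tested on simulated data. Positions came from GENCODE M21 and start windows from RefSeq. The members and lists were chosen with earlier results of these data known. Named genes were the 6 highest and 6 lowest log2 fold changes, the 6 highest mean TPM, genes with listed roles and genes of the listed related groups. Other called genes are named because they were called. Some genes that this rule names are counted in the totals and not reported here by name. Depth was 14783890 to 19675447 counts per library.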

Additional observations from a re-analysis of the deposited data

How the results depend on the processing

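With 3 libraries per genotype, 1 library could decide a call. The count of ribosomal protein genes called higher was 20, and 29 with DESeq2, 21 with limma-voom, 16 with DESeq2 size factors, 15 with upper quartile scaling, 21 with TMM factors computed without these genes, 19 with an effective length offset, 21 with filterByExpr, 19 with limma on the normalized signal at either pseudocount, and 13 without a filter on low counts, where 23345 genes were tested. In these fits 16.05% to 35.8% of the ribosomal protein genes were called higher, against 7.46% to 14.7% of all genes tested. The count ranged from 4 to 36 when each library was left out (4.94% to 45.0%, against 4.96% to 13.7% of all genes, and below them without Foxo1Ctrl 1 or 3), and the count past a fold of 1.5 from 4 to 19, while 0 genes were called lower in each of these fits. The median log2 fold change ranged from 0.25 to 0.42 and the difference in the share of counts from 1.28 to 1.55 percentage points under the same omissions, and that difference was 2.50 points with TPM in place of counts. Without single libraries, 71 to 76 genes stayed above 0, and 71 were above 0 in every fit that tested them.

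Of the named genes, 4 changed sign, none of them called in either case. When each library was left out, the log2 fold change ranged from -0.10 to 0.084 for Rpl18, from -0.071 to 0.20 for Rps14, from -0.067 to 0.078 for Rpl13a and from -0.0065 to 0.15 for Rplp0. They were below 0 without Foxo1TKO 1 (Rpl18), Foxo1TKO 3 (Rps14), Foxo1Ctrl 1 (Rps14) or Foxo1Ctrl 3 (all 4 genes). The cause was not tested. Same-numbered libraries deviated from their genotype means with correlations of 0.43, 0.20 and -0.11. With 3 libraries per genotype, such values cannot settle whether the numbers pair the samples. The study paired the genotypes by experiment in its flow cytometry of such cultures. In the main fit the samples were not paired. With the replicate number as a replicate block, 17 genes were called higher, 15 of them among the 20.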
